A study of Mus musculus with 8 samples.

Results

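The miR-30 family was followed through both arms of its hairpins in mouse spinal cord. The members were chosen by name, as 10 of the 1396 mature miRNAs of the deposited table, and come from 6 genes. The 5 from the first (5p) arm of a hairpin were mmu-miR-30a-5p, mmu-miR-30b-5p, mmu-miR-30c-5p, mmu-miR-30d-5p and mmu-miR-30e-5p, and the 5 from the opposite (3p) arm were mmu-miR-30a-3p, mmu-miR-30c-1-3p, mmu-miR-30c-2-3p, mmu-miR-30d-3p and mmu-miR-30e-3p; the species prefix is left out from here on. The left spinal cord of C57BL/6 mice was sequenced in 2 groups of 4 libraries, described as small RNA although the extraction protocol in the labels describes rRNA removal and fragmentation. In the bone cancer pain group, cells of the mouse lung carcinoma line LL/2 had been transplanted into the marrow space of the left femur, and in the sham group that space had received the same volume of normal saline. All mice carried the same strain background, and the labels give no age, sex or time after surgery. Whether each library is a mouse of its own is not stated in the labels, and every p-value given here is therefore one for library-to-library spread, part of which may be technical.

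A miRNA hairpin is cut by Dicer into a duplex, and 1 strand is kept by an Argonaute protein while the other is mostly degraded. The kept strand finds its target mRNAs mainly through its seed, bases 2 to 8 counted from the 5′ end, so miRNAs that share a seed can act on overlapping sets of targets. The miR-30 5p arms share a seed and are expressed in many tissues. They are known to repress the autophagy gene Becn1, shown in human cells, and in rat dorsal root ganglia miR-30b-5p has been described to act on the voltage-gated sodium channel gene Scn9a, which is central to pain signalling.

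Of the 10 members, 7 matched a mature sequence in RefSeq (GRCm38.p6), which are miR-30a-5p, miR-30a-3p, miR-30c-5p, miR-30c-1-3p, miR-30c-2-3p, miR-30e-5p and miR-30e-3p. miR-30b-5p, miR-30d-5p and miR-30d-3p are given by name. The 5p arms are shown first because they carry the family's seed, in capitals, together with miR-384-5p, the only other miRNA among the 1180 matched names of the table with the same seed:
miR-30a-5p: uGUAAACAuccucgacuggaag
miR-30e-5p: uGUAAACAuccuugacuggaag
miR-30c-5p: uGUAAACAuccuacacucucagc
miR-384-5p: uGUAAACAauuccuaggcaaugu
From miR-30a-5p to miR-30e-5p there is 1 substitution, C13U, counted from the 5′ end. Reads of these near-identical arms could be split between them by the authors' counting, so the division between miR-30a-5p and miR-30e-5p is uncertain. The 3p arms fall into a pair of other seeds:
miR-30a-3p: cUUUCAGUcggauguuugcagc
miR-30e-3p: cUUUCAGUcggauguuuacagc
miR-30c-1-3p: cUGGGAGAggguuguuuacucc
miR-30c-2-3p: cUGGGAGAaggcuguuuacucu
miR-30a-3p and miR-30e-3p also differ by 1 substitution, G18A, so the division of reads between them is uncertain as well. miR-30c-1-3p and miR-30c-2-3p differ by G9A, U12C and C22U. miR-6958-5p, the only further name with one of these 3p seeds, averaged 0.0163 CPM (reads scaled to the library total) over the 8 libraries.

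The 6 genes lie in 3 pairs (GRCm38). Mir30a (chr1:23272269-23272339, plus strand) is outside other annotated genes and Mir30c-2 (chr1:23291701-23291784, plus strand) lies in an exon of the lincRNA gene Gm27028, 19361 bases away. Mir30e (chr4:120772606-120772697) and Mir30c-1 (chr4:120769534-120769622), 2983 bases apart on the minus strand, both lie in introns of Nfyc, which encodes a subunit of the transcription factor NF-Y. Mir30d (chr15:68341208-68341289) and Mir30b (chr15:68337415-68337510), 3697 bases apart on the minus strand, lie in exons of noncoding transcripts. miR-30c-5p is encoded identically in Mir30c-1 and Mir30c-2, so its reads cannot be assigned to a gene, while the 3p arms of those genes can be told apart. The Mir30a and Mir30e hairpins are shown because the listed levels of their arms differ in order below, with the mature arms in capitals:
Mir30a: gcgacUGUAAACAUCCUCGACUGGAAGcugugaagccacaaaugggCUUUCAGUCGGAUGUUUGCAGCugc
Mir30e: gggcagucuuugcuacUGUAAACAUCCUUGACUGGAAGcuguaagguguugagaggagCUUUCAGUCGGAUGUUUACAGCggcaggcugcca
On the strand opposite Mir30e the annotation holds Mir30f. Its product miR-30f, looked at after its values were seen, was listed at 0 to 0.65 CPM.

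The recovered reads of all listed names summed to between 5220739 and 9260169 per library. Some names, such as miR-199a-3p and miR-199b-3p, had identical fold changes. Reads may thus be counted under more than 1 name in this sum and in the CPM sum of all listed miRNAs. The neural, Hox-cluster and oligodendrocyte miRNAs used as spinal cord markers were detected in every library, 6 of 6, with a summed level of 203981 to 251749 CPM. Striated muscle miRNAs (6 of 6 detected, miR-208a-3p at 0 in some libraries) summed to 6065 to 16944 CPM in bone cancer pain and 5377 to 29294 CPM in sham, and erythroid miRNAs (4 of 4) to 1449 to 2384 and 670 to 3415 CPM. Vascular miRNAs (3 of 3) summed to 23177 to 35412 CPM in bone cancer pain and 16705 to 29238 CPM in sham. Epithelial miRNAs (6 of 6) were low, and the groups of their sum were apart by a narrow margin. The sum was 50.95 to 101.8 CPM in bone cancer pain against 38.6 to 50.5 CPM in sham. Its members did not all go the same way. By DESeq2 on recovered reads the log2 fold change was -0.49 for miR-200c-3p. It was 1.00, 0.61, 0.61 and 1.08 for miR-200a-3p, miR-200b-3p, miR-203-3p and miR-205-5p, and miR-141-3p was not among those tested. For single miRNAs, groups apart and higher held for 1.98% of all tested. The part of these other cell types in the miR-30 values was not tested. In bulk tissue, fewer cells of a type and less RNA per cell cannot be told apart.

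Together the 10 members took 4.56% to 5.23% of the CPM of all listed miRNAs, nearly all of it in the 5p arms. The summed 5p arms stood at 29910, 33323, 27453 and 30357 CPM in bone cancer pain 1 to 4 and at 28991, 31033, 29144 and 31056 CPM in sham 1 to 4. The sum averaged 30261 ± 2408 CPM (SD, n = 4) in bone cancer pain and 30056 ± 1143 CPM (SD, n = 4) in sham, and the sham libraries fell inside the range of the bone cancer pain libraries. The 5p sum was 8.26 to 10.6 times the 3p sum in each library. For scale, the let-7 and miR-98 5p arms summed to 58863 CPM over the 8 libraries, the miR-26 5p arms to 29393 CPM, the miR-181 5p arms to 9160 CPM and the miR-29 3p arms to 2936 CPM, against 30158 CPM for the miR-30 5p arms. In miR-30 the 2 most abundant members, miR-30a-5p and miR-30d-5p, held 42.5% and 37.4% of the sum. The 2 most abundant held 34.4% and 20.2% in let-7 and miR-98, 74.8% and 21.2% in miR-181, 94.8% and 5.18% in miR-26, and 93.6% and 5.38% in miR-29.

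miR-30a-5p, the most abundant member and rank 13 of the table by mean level, was at 12471, 15117, 10264 and 14003 CPM in bone cancer pain 1 to 4 and at 11793, 13158, 12544 and 13131 CPM in sham 1 to 4. The bone cancer pain libraries held both the highest and the lowest value. miR-30d-5p, an arm described to support insulin expression in mouse pancreatic beta cells, ranked 16 and was at 11588, 12021, 10343 and 10575 CPM in bone cancer pain and at 11411, 11882, 10843 and 11548 CPM in sham. miR-30a-5p stood above miR-30d-5p in every library but bone cancer pain 3, at 0.992 to 1.32 times its level. These neighbours in the order of levels therefore lay within the spread between libraries.

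miR-30c-5p, the product of both 30c genes, was at 4797, 4992, 5701 and 4527 CPM in bone cancer pain and at 4744, 4862, 4654 and 5160 CPM in sham, below miR-30a-5p and miR-30d-5p in every library. Bone cancer pain 3, the library with the lowest miR-30a-5p and miR-30d-5p, had the highest miR-30c-5p, and there miR-30c-5p made up 20.8% of the 5p sum against 14.9% to 16.6% in the other 7 libraries. miR-30e-5p was at 776, 919, 856 and 939 CPM in bone cancer pain and at 825, 881, 892 and 960 CPM in sham, so miR-30a-5p was 11.99 to 16.5 times as abundant as its near-identical relative. miR-30b-5p was the lowest 5p arm, with 0.724% to 1.05% of the sum. Its relative with the same seed, miR-384-5p, a miRNA of the X chromosome linked to long-term potentiation in rodent hippocampus, was at 98.8, 97.4, 126.9 and 90.2 CPM in bone cancer pain and at 89.2, 95.7, 89.7 and 121.1 CPM in sham.

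**Figure D1:**
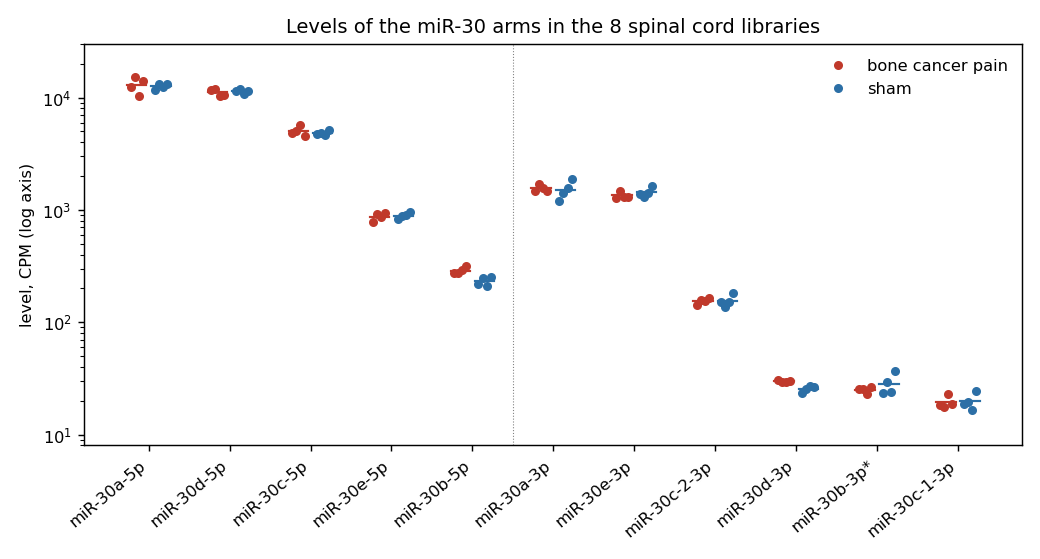
Level of each arm in CPM on a log axis; each point is a library, red for bone cancer pain and blue for sham, and each bar a group mean (n = 4). miR-30b-3p, marked with an asterisk, is not among the 10 members and is shown as the other arm of miR-30b. The groups are apart for miR-30b-5p and miR-30d-3p and overlap for the others.

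Among the 3p arms, miR-30a-3p and miR-30e-3p were the most abundant and close to each other. miR-30a-3p was at 1471, 1706, 1557 and 1478 CPM in bone cancer pain and at 1204, 1427, 1556 and 1882 CPM in sham, and miR-30e-3p at 1275, 1485, 1311 and 1310 CPM in bone cancer pain and at 1372, 1314, 1401 and 1644 CPM in sham. The ratio of miR-30a-3p to miR-30e-3p ran from 1.13 to 1.19 in bone cancer pain and from 0.878 to 1.14 in sham, so in sham 1 the order was turned. The share of miR-30e-3p in the 3p sum was 42.6% to 43.7% in bone cancer pain and 43.8% to 49.5% in sham; the groups did not overlap, by a narrow margin, and a share over chosen members was given no test.

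miR-30c-2-3p was at 143.8, 158.5, 153.4 and 163.7 CPM in bone cancer pain and at 152.0, 136.3, 150.6 and 180.4 CPM in sham. miR-30c-1-3p was at 18.3, 17.7, 22.8 and 18.9 CPM in bone cancer pain and at 18.8, 19.3, 16.7 and 24.5 CPM in sham. The arm from Mir30c-2 thus made up 87.1% to 90.0% of the reads of both 30c 3p arms, a share whose groups overlapped. Within the pairs of genes, miR-30a-3p was 7.92 to 10.8 times miR-30c-2-3p and miR-30e-3p was 57.6 to 83.9 times miR-30c-1-3p.

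**Figure D2:**
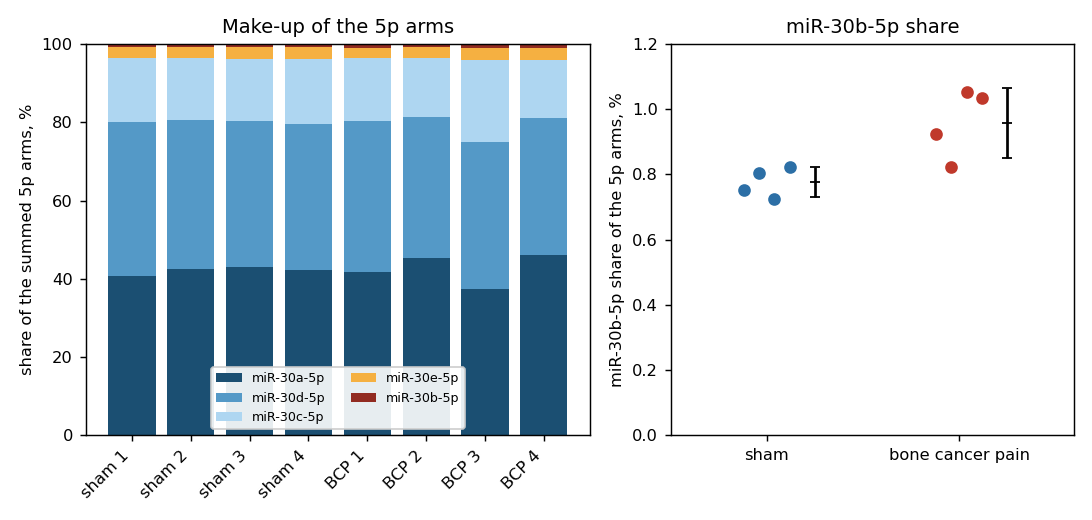
Left, share of each miR-30 5p arm in the summed 5p arms of each library, in percent. Right, the share of miR-30b-5p per library on an axis from 0, with group mean and SD (n = 4); it ran from 0.823% to 1.05% in bone cancer pain and from 0.724% to 0.822% in sham.

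The comparison of bone cancer pain with sham asked which miRNAs of the spinal cord differ when a tumour grows in the femur. With limma on log2(CPM + 1) over the 605 miRNAs whose 8-library mean reached 1 CPM, a level that all 10 members also reached in each group, 0 of the 10 members passed an adjusted p of 0.05 (Benjamini-Hochberg), as did 0 (0%) of all tested. At an unadjusted p under 0.05 there was 1 of the 10, miR-30b-5p, against 4.63% of all tested (28 miRNAs). edgeR and DESeq2 on reads recovered from the CPM also passed 0 after adjustment, with 43 (7.11%) and 31 (5.12%) miRNAs at an unadjusted p under 0.05, miR-30b-5p alone among the members in each. By the sign of the log2 fold change 6 members were higher and 4 lower, where 292 of the 605 were higher and 313 lower. The median over the members was 0.013 beside -0.007 over all tested. All 10 intervals lay within 1.5-fold in both directions, which held for 61.0% of all tested. The residual SD of each of the 10 members was below the median of all tested.

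miR-30b-5p was at 276.6, 274.2, 289.2 and 313.6 CPM in bone cancer pain and at 218.0, 249.9, 211.0 and 255.4 CPM in sham. Every bone cancer pain library stood above every sham library. The means were 288.4 ± 18.1 and 233.6 ± 22.3 CPM (SD, n = 4 each), a log2 fold change of 0.31 (95% interval 0.04 to 0.57, limma adjusted p = 0.887). Without sham 1 and sham 2, the libraries with the most striated muscle miRNA, the log2 fold change was also 0.31. Bone cancer pain 4, with 16944 CPM of striated muscle miRNA and the highest miR-30b-5p, was kept. The kept sham libraries held 5377 and 9998 CPM. With the groups apart the sign could not turn, and the part of muscle in this difference was not tested. The share of miR-30b-5p in the 5p sum averaged 0.959% ± 0.107 in bone cancer pain and 0.776% ± 0.0457 in sham (SD, n = 4 each), the lowest value of the first group, 0.823%, lying just above the highest of the second, 0.822%. miR-30d-5p, from the neighbouring gene, was 33.7 to 43.8 times miR-30b-5p in bone cancer pain and 45.2 to 52.3 times in sham, with no overlap. Neither this ratio nor the share was tested or compared with those of other miRNAs. With miR-30d-5p at a log2 fold change of -0.04, the ratio largely restates the difference in miR-30b-5p.

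miR-30d-3p, the sparse arm of Mir30d, was at 30.5, 29.2, 29.3 and 29.9 CPM in bone cancer pain and at 23.4, 25.6, 27.1 and 26.4 CPM in sham, again without overlap. Its log2 fold change was 0.21 (95% interval -0.07 to 0.48, limma adjusted p = 0.943). The values rest on 203 to 354 reads per library, and the counting interval (95%, exact Poisson) of the lowest bone cancer pain library, 26.2 to 32.4 CPM, overlapped that of the highest sham library, 24.3 to 30.1 CPM. The coefficient of variation among the bone cancer pain libraries was 2.03%, below the 5.31% to 6.35% that counting alone gives at these reads. Groups apart and higher in bone cancer pain were thus seen for 2 of the 10 members, against 1.98% of all tested (12 miRNAs), and groups apart and lower for 0 of the 10, against 1.65% (10 miRNAs). Both of the 2 come from the chromosome 15 pair, while the remaining member from that pair, miR-30d-5p, was at -0.04 on the log2 scale (95% interval -0.24 to 0.16).

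For the remaining members the log2 fold changes were 0.02 for miR-30a-5p (95% interval -0.25 to 0.29), 0.05 for miR-30a-3p (-0.26 to 0.36) and 0.04 for miR-30c-5p (-0.18 to 0.26). Those from the Nfyc introns were -0.03 for miR-30e-5p (-0.27 to 0.21), -0.09 for miR-30e-3p (-0.33 to 0.16) and -0.02 for miR-30c-1-3p (-0.38 to 0.33). miR-30c-2-3p had the same mean, 154.8 CPM, in both groups (log2 fold change 0.01, 95% interval -0.27 to 0.28). For miR-384-5p, which shares the 5p seed, the value was 0.06 (-0.28 to 0.41).

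**Figure D3:**
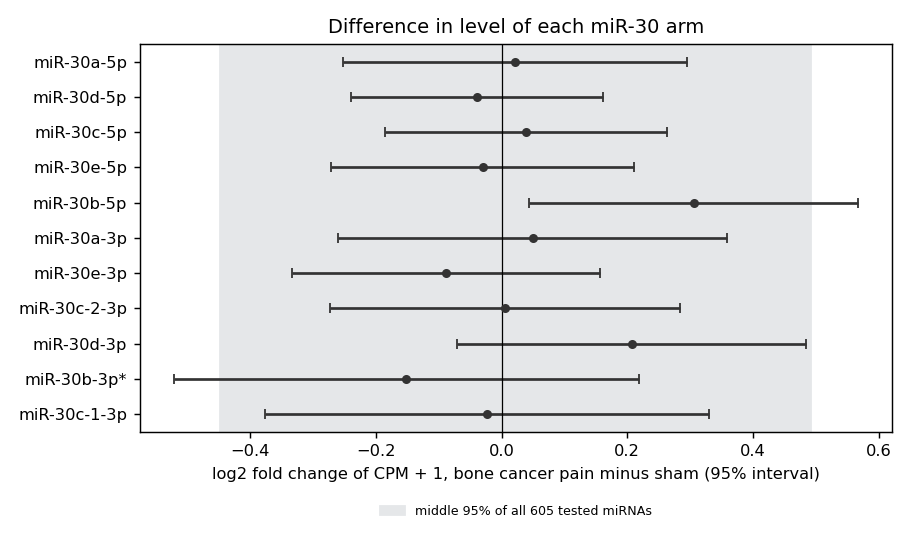
Difference between bone cancer pain and sham for each arm as log2 fold change of CPM + 1 with its 95% interval (limma, n = 4 per group); the grey band spans the middle 95% of the log2 fold changes of all 605 tested miRNAs, from -0.45 to 0.49. All points lie in the band, and the interval of miR-30b-5p is the only one that lies above 0.

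The ratio of the arms of 1 hairpin differed widely within the family. miR-30d-5p was 353 to 487 times its 3p arm, miR-30b-5p was 6.96 to 12.6 times its 3p arm, and miR-30a-5p was 6.59 to 9.79 times its 3p arm. In miR-30e the 3p arm was listed as the more abundant in all 8 libraries, the 5p arm making up 36.9% to 41.7% of both. That order depends on how reads of the near-identical arms of miR-30a and miR-30e were divided, which is uncertain. Over the 8 libraries miR-30a-5p averaged 12810 CPM, miR-30e-5p 881 CPM and miR-30e-3p 1389 CPM, so a small part of the miR-30a-5p reads could change it. Among the 161 hairpin names whose arms both averaged 1 CPM or more, the 3p arm was the more abundant in 51.6%. By the mean log2 ratio of 5p to 3p, 4.3% of the 161 lay above miR-30d, 22.4% above miR-30b, 23.0% above miR-30a and 57.1% above miR-30e. miR-30c-5p was 24.8 to 32.4 times the sum of the 3p arms of its genes.

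The arm ratios were compared between the groups with limma over all 161 names. Of the 4 miR-30 hairpins, 0 passed an adjusted p of 0.05, as did 0 (0%) of all 161, where the smallest adjusted p was 0.152. miR-30b was the 1 hairpin of the 4 at an unadjusted p under 0.05, against 8.7% of all names (14 names). Its 5p arm was 10.9, 10.9, 12.6 and 11.8 times the 3p arm in bone cancer pain 1 to 4 and 9.35, 8.52, 8.82 and 6.96 times in sham 1 to 4. The groups did not overlap, which with the higher values in bone cancer pain held for 1 of the 4 and for 3.73% of all names (6 names). On the log2 scale the ratio was higher by 0.46 (95% interval 0.16 to 0.75, unadjusted p = 0.00466, limma adjusted p = 0.250), rank 3 among the 161 by p.

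The opposite arm, miR-30b-3p, which is not among the 10 members, was at 25.3, 25.2, 23.0 and 26.6 CPM in bone cancer pain and at 23.3, 29.3, 23.9 and 36.7 CPM in sham. Its groups overlapped, and sham 4 was the highest library (log2 fold change -0.15, 95% interval -0.52 to 0.22, limma adjusted p = 0.943). Without sham 4 the log2 fold change of miR-30b-3p was -0.023 and the log2 difference in the miR-30b arm ratio was 0.37. The values of miR-30b-3p rest on 206 to 396 reads per library, so counting alone gives a coefficient of variation of 5.03% to 6.97%.

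For miR-30d the ratio was 381, 412, 353 and 353 in bone cancer pain and 487, 464, 400 and 437 in sham, with bone cancer pain 2 above sham 3. The log2 difference was -0.25 (95% interval -0.50 to 0.01, limma adjusted p = 0.506). miR-30b and miR-30d, neighbours on chromosome 15, thus had arm ratio differences of opposite sign, and neither passed the adjusted threshold. In miR-30a the log2 difference was -0.03 (95% interval -0.34 to 0.28) and in miR-30e 0.06 (-0.19 to 0.30), both with overlapping groups. The arm ratio of miR-30e varied little between libraries, from 0.584 to 0.716.

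**Figure D4:**
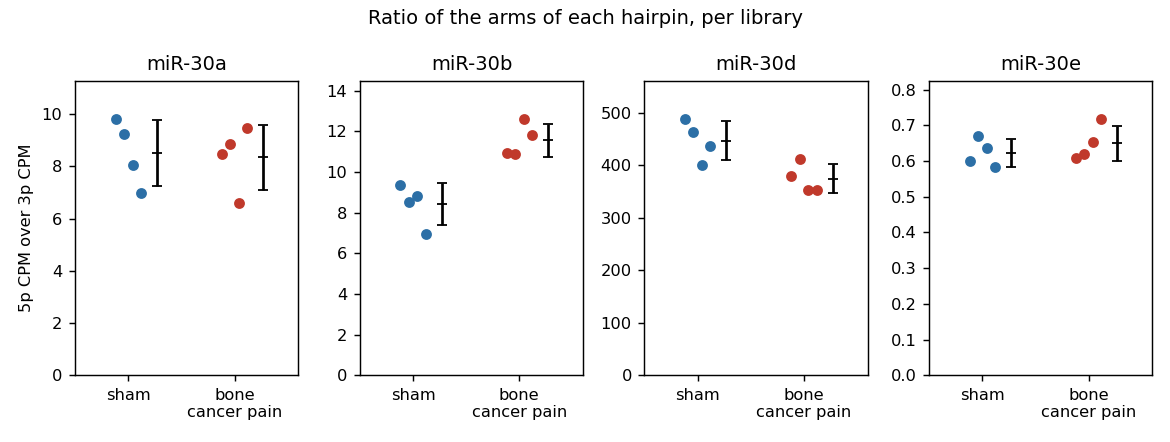
Ratio of 5p to 3p CPM per library for the 4 hairpins with both arms listed under 1 name, each panel on its own axis from 0; black marks give the group mean and SD (n = 4). For miR-30b all bone cancer pain libraries lie above all sham libraries, while the groups overlap in the other panels.

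Genes of 1 cluster can be transcribed together, so the levels of cluster partners were compared over the 8 libraries as log2(CPM + 1). For each member all 604 other tested miRNAs were compared, with two-sided exact permutation p-values adjusted over those 604. miR-30c-1-3p was the only member with any miRNA at an adjusted p under 0.05 for r. It had 5, with a smallest adjusted exact permutation p of 0.0449, and its cluster partners were not among them. miR-30a-3p and miR-30c-2-3p had a Pearson's r of 0.62 (exact p = 0.0991, adjusted p = 0.536) and a Spearman's rho of 0.69 (exact p = 0.0694, adjusted p = 0.627), rank 104 of 604, where the median r of miR-30a-3p with all others was 0.32. Without the 2 libraries farthest from the median of miR-30a-3p the r was 0.56. miR-30a-5p and miR-30c-2-3p had an r of 0.22 (exact p = 0.601, adjusted p = 0.957) and a rho of 0.29 (exact p = 0.501, adjusted p = 0.942), rank 153, beside a median r of -0.04, and an r of 0.33 without 2 libraries. miR-30e-3p and miR-30c-1-3p, both from Nfyc introns, had an r of 0.39 (exact p = 0.331, adjusted p = 0.697) and a rho of 0.00 (exact p = 1, adjusted p = 1), rank 239, beside a median r of 0.28. Without 2 libraries the r was -0.46 (exact p = 0.376), so its sign depended on those libraries. Leaving them out also narrows the range of levels, and neither r had an exact p under 0.05. The same holds for miR-30e-5p and miR-30c-1-3p, with an r of 0.28 (exact p = 0.512, adjusted p = 0.960) and a rho of 0.24 (exact p = 0.582, adjusted p = 1), rank 248, beside a median r of 0.19, and an r of -0.39 without 2 libraries. For miR-30b-5p the r with miR-30d-3p was 0.78 (exact p = 0.0238, adjusted p = 0.573) and the rho 0.79 (exact p = 0.0279, adjusted p = 0.675), rank 19 of 604, and the r 0.82 without 2 libraries. These are the 2 members whose groups did not overlap, and on deviations from the group means, computed after seeing the data, their r was 0.16. With miR-30d-5p its r was -0.24 (exact p = 0.559, adjusted p = 0.995) and its rho -0.26 (exact p = 0.536, adjusted p = 1), rank 500, and the r was -0.75 without 2 libraries and -0.04 on deviations from the group means. The partners had median r of their own, 0.33 for miR-30c-2-3p and 0.41 for miR-30c-1-3p. Against these, the r of 0.62 for miR-30a-3p lay above. Those of 0.22 for miR-30a-5p, 0.39 for miR-30e-3p and 0.28 for miR-30e-5p lay below. On chromosome 15 the median r was 0.1 for miR-30b-5p, -0.09 for miR-30d-5p and 0.02 for miR-30d-3p. None of these 6 cluster pairs passed the adjusted threshold.

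The arms of 1 hairpin did not pass the adjusted threshold either. miR-30e-5p and miR-30e-3p had an r of 0.65 (exact p = 0.0811, adjusted p = 0.531) and a rho of 0.57 (exact p = 0.151, adjusted p = 0.766). Without 2 libraries the r was 0.18, so its size depended on those libraries. Leaving out the libraries farthest from the median also narrows the range of levels, which can lower r by itself. miR-30a-5p and miR-30a-3p had an r of 0.33 (exact p = 0.431, adjusted p = 0.932) and a rho of 0.26 (exact p = 0.536, adjusted p = 0.942). For the arms of miR-30d the r was -0.29 (exact p = 0.472, adjusted p = 0.991), the rho -0.21 (exact p = 0.619, adjusted p = 0.996) and the r without 2 libraries 0.21. miR-30b-5p and miR-30b-3p had an r of 0.09 (exact p = 0.842, adjusted p = 0.995), a rho of 0.07 and an r of -0.60 without 2 libraries. On deviations from the group means the r was 0.80 for the arms of miR-30b, 0.64 for miR-30e, 0.32 for miR-30a and -0.14 for miR-30d. These values were also computed after seeing the data. They were given no p-value and were not compared with those of other miRNAs. The levels share the library totals used for CPM, and correlations within a group were not computed at n = 4.

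Among the 176 abundant miRNAs outside the family (mean from 100 CPM upward), those most like the summed 5p arms over the 8 libraries were miR-423-5p, miR-192-5p, miR-99b-5p, miR-100-5p and miR-151-3p. Their Pearson's r were 0.93, 0.85, 0.69, 0.67 and 0.64, and their Spearman's rho 0.95, 0.74, 0.76, 0.74 and 0.90. The smallest adjusted exact permutation p for r was 0.175, for miR-423-5p, whose r was 0.76 without the 2 libraries farthest from the median. For miR-192-5p the r was 0.29 without them, so its size depended on those libraries, though leaving them out also narrows the range of levels.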

How the data were processed

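RNA from the left spinal cord was sequenced in 8 libraries. Per the submitters' processing notes, fastp, STAR, Bowtie, Salmon and the build mm10 were used, with no version or role. The authors deposited miRNA levels in CPM, scaled to a library total that also counts reads outside the listed miRNAs. The sample descriptions name small RNA, while the labels' protocols describe TRIzol extraction, rRNA depletion, fragmentation and cDNA library kits. How small RNA was size-selected, and whether the miRNA libraries followed those protocols, is not given in the sources used here. A preference of the library preparation for some sequences would enter comparisons between arms and was not tested.

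The value of 1 read was recovered from the CPM steps: with a tolerance of 0.0051 CPM, 100% of values above 0 were whole reads. In bone cancer pain 3 the step is close to 0.1 CPM, but among its values from 1 CPM upward only 16.6% were multiples of 0.1 CPM. Library totals ran from 7686762 to 13498956 reads; the floor of 3 reads is 0.222 to 0.390 CPM. The exact Poisson intervals and the floors cover counting error only, while the limma intervals rest on the spread between libraries. Unmapped columns numbered 0.

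The test covered 605 miRNAs (mean 1 CPM or more; 791 left out) on log2(CPM + 1) with limma 3.58.1 in R 4.3.3 (trend, two-sided, Benjamini-Hochberg over all tested, threshold 0.05). The pseudocount understates changes of low miRNAs. The log2 ratio of 5p to 3p was fitted likewise over 161 names. As alternatives, the recovered reads were tested with edgeR 4.0.16 and DESeq2 1.42.0. On simulated data, limma recovered 22.5%, 78.5% and 97.5% of 200 miRNAs changed 1.5-, 2- and 4-fold among 605, and 15%, 57.5% and 100% of 40 arm ratios changed as much among 161. The simulation changed many miRNAs at once and drew the arms of a hairpin independently. It therefore does not give the recovery of a few changed members.

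Members, lists, tests and settings were chosen with earlier results of these data known. Named were the 10 members, miR-30b-3p, miRNAs with a member's seed, and the 5 miRNAs most like the 5p sum; any other was chosen after its values were seen. Sequences are from RefSeq (GRCm38.p6) and gene positions from GENCODE M21 (GRCm38). The 7 members with a matched sequence are 22 or 23 bases long, and CPM was compared between arms without length scaling, also for the arms of miR-30b and miR-30d. Other settings tried were leaving out libraries, a replicate block, array weights, no trend, and other pseudocounts, filters and scalings.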

Additional observations from a re-analysis of the deposited data

Results flagged for a closer look

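In bone cancer pain 2, miR-30e-3p stood at 1485 CPM, apart from the other 3 libraries of its group at 1275 to 1311 CPM. Its gap to the nearest library was 0.830 of the group's range, just past Dixon's 95% critical value for 4 samples. It was the 1 value marked among 42 groups of values checked, and chance marks about 1 in 20.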

How the results depend on the processing

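The counts of miRNAs and arm ratios past the adjusted threshold were 0 in every setting tried except that with the replicate block 1 arm ratio passed, that of miR-143, outside the family and named after its values were seen. Same-numbered libraries had correlations of their deviations from the group means of -0.31 to -0.01. The labels do not say whether the number marks a shared animal, litter or day, and so few pairs cannot settle it. With the block the miR-30b arm ratio had an adjusted p of 0.153. Its adjusted p ran from 0.113 to 0.778 over 12 settings with a log2 difference of 0.37 to 0.55. Over 21 settings the log2 fold change was 0.26 to 0.37 for miR-30b-5p and 0.15 to 0.23 for miR-30d-3p. As the groups of both were apart, leaving out libraries or changing the pseudocount could not turn these signs.

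Members near 0 turned sign. Leaving out 1 library gave ranges of -0.058 to 0.13 for miR-30a-5p, -0.055 to 0.16 for miR-30a-3p, -0.025 to 0.086 for miR-30c-5p, -0.099 to 0.077 for miR-30c-1-3p, -0.053 to 0.081 for miR-30c-2-3p, -0.066 to 0.025 for miR-30e-5p and -0.12 to 0.081 for the miR-30a arm ratio. miR-30c-2-3p was at -0.007 with CPM rescaled to the listed miRNAs, miR-30a-5p at -0.095 with quantile normalization, and miR-30d-5p and miR-30e-3p at 0.0088 and 0.013 with array weights. Without sham 1 and sham 2, miR-30a-5p, miR-30a-3p and miR-30c-2-3p were at -0.00046, -0.14 and -0.091, and the miR-30a arm ratio, a setting added after seeing the data, at 0.14. The causes were not tested. Without the 2 libraries farthest from the median, r was -0.39 for miR-30e-5p with miR-30c-1-3p and -0.46 for miR-30e-3p with miR-30c-1-3p. In the same setting r was 0.21 for the miR-30d arms and -0.60 for the miR-30b arms. The 5p sum had a log2 ratio of 0.01, or -0.04 to 0.054 leaving out 1 library. Reads of 149 to 396 per library limit miR-30c-1-3p, miR-30d-3p and miR-30b-3p.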
